A study of Homo sapiens with 8 samples.

Results

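The genes described are 10 members of the NF-kB pathway. They are the 5 subunits NFKB1, NFKB2, REL, RELA and RELB, the 3 inhibitors NFKBIA, NFKBIE and TNFAIP3, and the 2 cytokine genes IL6 and LIF. They were chosen by name, as all gene probes carrying one of these symbols, and this gave 12 probes of the 34127 on the array and 10 of 27263 genes. RELA and LIF had 2 probes each. Expression was measured on 1-color Agilent arrays in MIA PaCa-2 and Capan-1, established cell lines derived from pancreatic ductal adenocarcinoma, Capan-1 from a hepatic metastasis. There were 8 arrays in 4 groups. In each line 2 arrays held RNA from cells transfected with siRNA against HOXB7 (10 nM, 48 hours), and the other 2 held RNA from parental cells. The cells of the study's scrambled siRNA are not among these arrays, so the effect of the knockdown and of transfection itself cannot be told apart. The arrays of each line shared 1 slide and 1 scan, and on both slides the siRNA samples took positions 1 and 2 and the parental samples positions 3 and 4, so slide and line, and position and treatment, cannot be told apart either. The lines were kept in different media with different amounts of fetal bovine serum, and the methods name RPMI as the plating medium for transfection. HOXB7 is a homeobox transcription factor, and which siRNA duplex was used is not given in the labels.

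NF-kB is a family of dimeric transcription factors that inhibitors of the IkB family hold in the cytoplasm. Signals from cytokine and Toll-like receptors lead to phosphorylation and degradation of the inhibitor, and the freed dimer enters the nucleus and binds a short consensus sequence near its targets. Several of these targets are the genes of the pathway itself, among them NFKBIA and TNFAIP3, which close a negative feedback loop. In pancreatic cancer the pathway is often active, and IL6 and LIF are cytokines that signal through the shared receptor chain gp130.

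The NF-kB consensus, a sequence of 10 letters, was searched on both strands in the promoter windows of RefSeq (GRCh38.p14), each reaching from 250 bases before to 50 bases after an annotated start site. Windows were held for 7 of the 10 genes: NFKB1, NFKB2, REL, RELA, NFKBIA, TNFAIP3 and IL6. Of these, 6 held the consensus in at least 1 window and RELA in neither of its 2. Over all genes with a window, 13.3% held it, and of 35116 windows 11.3% did. Genes with several windows have more chances to match. Since the 10 genes were chosen as members of the pathway, the comparison with all genes is a description and no test. The 150 bases before the start site are shown for 3 genes that differed widely between the lines, NFKBIA, TNFAIP3 and IL6, and for the subunit REL, which differed little, with the matches in capitals. They lie at chr14:35404750-35404899 (minus strand), chr6:137867109-137867258 (plus strand), chr7:22727050-22727199 (plus strand) and chr2:60881424-60881573 (plus strand).
NFKBIA: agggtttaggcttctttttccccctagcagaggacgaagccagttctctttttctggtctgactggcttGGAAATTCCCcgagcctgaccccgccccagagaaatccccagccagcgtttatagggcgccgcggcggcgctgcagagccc
TNFAIP3: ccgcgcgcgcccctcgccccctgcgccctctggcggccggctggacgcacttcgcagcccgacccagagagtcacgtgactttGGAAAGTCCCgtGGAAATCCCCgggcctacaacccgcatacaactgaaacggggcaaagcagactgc
IL6: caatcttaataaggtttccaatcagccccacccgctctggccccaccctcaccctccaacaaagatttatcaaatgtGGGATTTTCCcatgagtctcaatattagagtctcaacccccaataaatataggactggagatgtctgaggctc
REL: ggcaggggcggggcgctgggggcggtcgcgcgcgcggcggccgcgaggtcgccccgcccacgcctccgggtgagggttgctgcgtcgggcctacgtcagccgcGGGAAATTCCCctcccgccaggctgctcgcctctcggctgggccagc
The REL stretch holds 2 overlapping matches, 1 on each strand, which share all but their outer letters. TNFAIP3 holds 2 matches that do not overlap. The window of NFKB1 with a match holds 1, and NFKB2 holds 5 over 2 of its 3 windows, some of them overlapping. A match is a run of letters and no measure of binding, and no binding data are part of this series.

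A level here is the log2 signal of a probe minus the 75th percentile of all gene probes on the same array, so a level of 0 is the 75th percentile. Levels are compared within a probe and not between genes. The RNA came from whole cultures, so fewer expressing cells and less RNA per cell cannot be told apart. The labels do not say whether the duplicates were separate cultures, so p-values measure only the spread between these samples, which may be technical. Probes called well above background, the software's call that a spot exceeds its local background, made up between 69.2% and 74.3% of gene spots per array, and all 12 probes of the 10 genes were among them on all 8 arrays. The correlation between the arrays of a group was 0.994 to 0.997 over all probes. Of the epithelial markers, KRT8, KRT18 and KRT19 were above background on all arrays, while CDH1 and EPCAM were above it in Capan-1 and not well above background on any MIA PaCa-2 array. The mesenchymal markers VIM and ZEB1 were above background in both lines and higher in MIA PaCa-2, VIM at 7.87 to 8.31 against -1.14 to -0.88. Of the markers of other cell types, PDGFRB was not well above background on any array. PECAM1 was called on 1 array by its brightest probe. By their brightest probes, COL1A1, COL1A2, PTPRC, CD14, CD3E and CDH5 gave signal in both lines. Several other PTPRC probes were not well above background on any array. COL1A2 was high in MIA PaCa-2 (3.79 to 3.95), as was CD14 (1.40 to 1.87), and their part in the differences between the lines was not tested. Tests were made with limma, with 25552 probes in the fit. Benjamini-Hochberg adjustment ran over the probes tested in each comparison, with a threshold of adjusted p under 0.05. A permutation of 2 arrays against 2 cannot give a two-sided p below 0.333.

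The targeted gene stood lower on the siRNA arrays of both lines. In MIA PaCa-2, HOXB7 stood at -4.82 and -4.10 on the parental arrays and at -7.77 and -7.78 on the siRNA arrays, where it was not well above background. It was therefore at least 2.82-fold lower (adjusted p = 0.0174). In Capan-1 it stood at -2.48 and -2.34 on the parental arrays and at -5.26 and -4.80 on the siRNA arrays. The log2 fold change of -2.62 ± 0.26 (SE) in Capan-1 had an adjusted p of 0.126 in limma, where 1 of 18883 genes passed in this line.

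The first question was whether the NF-kB genes moved with HOXB7 siRNA. None of the 10 genes passed the threshold in MIA PaCa-2, where 1.12% of all genes tested fell and 1.15% rose. None passed in Capan-1, where 0.0053% rose and 0% fell. At an unadjusted p under 0.05, NFKBIE and REL were higher in MIA PaCa-2, where 11.9% of all genes were higher and 11.3% lower at that level, and NFKBIE was higher in Capan-1, where 6.49% were higher and 7.96% lower. The log2 fold changes of the 10 genes ran from -0.22 to 0.36 in MIA PaCa-2 and from -0.23 to 0.30 in Capan-1, and their 95% intervals ran from -0.50 at the lowest to 0.65 at the highest. That no gene passed does not show that these genes did not change within these bounds. Their medians were 0.08 and 0.11, beside 0.02 and -0.003 over all genes tested in each line.

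**Figure D1:**
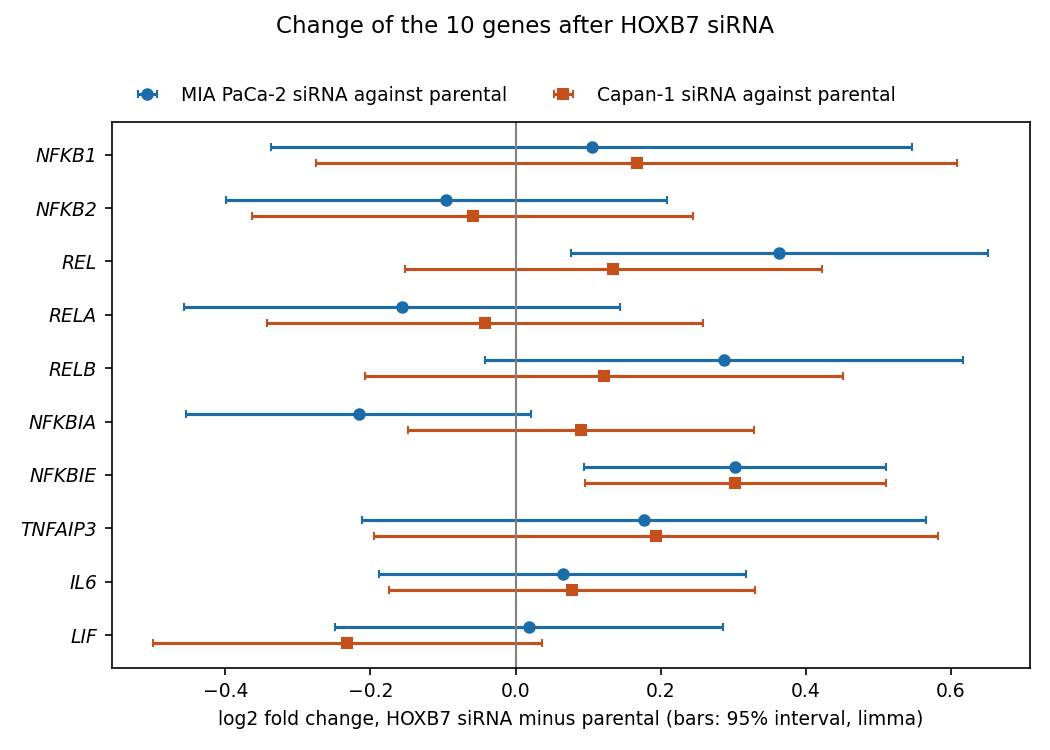
Log2 fold change of the 10 genes after HOXB7 siRNA (x axis) in MIA PaCa-2 (circles) and Capan-1 (squares), with 95% intervals from limma, 2 arrays against 2. All points lie between -0.23 and 0.36, and the intervals that leave out 0 are those of NFKBIE in both lines and REL in MIA PaCa-2, none of which passed after adjustment.

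Among the subunits, REL (c-Rel, a subunit with a transactivation domain) had the largest difference between siRNA-treated and parental cells in MIA PaCa-2, while in Capan-1 NFKB1 had a larger one, at 0.17. Its level in MIA PaCa-2 was -1.75 and -1.99 in parental and -1.54 and -1.47 in siRNA-treated cells, and the Capan-1 level was -1.28 and -1.12 against -1.005 and -1.12. The groups did not overlap in MIA PaCa-2 and overlapped in Capan-1. The difference was 0.36 ± 0.12 in MIA PaCa-2 (SE, n = 2 per group, adjusted p = 0.166 in limma) and 0.13 ± 0.12 in Capan-1 (limma adjusted p = 0.664). RELB, the partner of p52 in the non-canonical branch, had a difference of 0.29 ± 0.13 in MIA PaCa-2, with both siRNA arrays (2.66 and 2.41) above the parental ones (2.24 and 2.25). In Capan-1 the RELB groups overlapped. NFKB1, which encodes p105 and its product p50, NFKB2, which encodes p100 and p52, and RELA, which encodes p65, had values of -0.16 to 0.17 in either line by their brightest probes.

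Among the inhibitors, NFKBIE, which encodes IkB epsilon, had the same value in both lines, the largest of the 10 in Capan-1. Its level was 1.26 and 1.29 in parental and 1.63 and 1.53 in siRNA-treated MIA PaCa-2, and 2.85 and 2.79 against 3.08 and 3.17 in Capan-1. The siRNA arrays were above the parental arrays in both lines, without overlap. The difference was 0.30 ± 0.08 in each line, a 1.23-fold difference, with limma adjusted p of 0.129 in MIA PaCa-2 and, for Capan-1, of 0.304. NFKBIA, which encodes IkB alpha, stood at 3.35 and 3.47 in parental and at 3.26 and 3.12 in siRNA-treated MIA PaCa-2. Its Capan-1 levels were 5.19 and 5.14 against 5.19 and 5.32. Neither difference passed (-0.22 ± 0.10 and 0.09 ± 0.10, limma adjusted p = 0.280 and 0.731). Its Capan-1 value was -0.06 without scaling between arrays and -0.0083 with quantile normalization. TNFAIP3, which encodes the ubiquitin-editing enzyme A20, had differences of 0.18 ± 0.16 and 0.19 ± 0.16, with overlapping arrays in MIA PaCa-2.

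The cytokine genes showed the least movement in MIA PaCa-2. IL6, an inflammatory cytokine, had a difference of 0.06 ± 0.10 in MIA PaCa-2, while the Capan-1 value was 0.08 ± 0.10. LIF, a relative of IL6 that acts through LIFR and gp130, had one of 0.02 ± 0.11 in MIA PaCa-2, while the Capan-1 value was -0.23 ± 0.11. Its siRNA arrays there (1.81 and 1.65) were below the parental ones (1.94 and 1.98) with an adjusted p of 0.446 in limma. In all, the siRNA arrays lay wholly above the parental arrays for 3 of the 10 genes and wholly below for 1 in MIA PaCa-2, where 27.8% and 24.3% of all genes did so. In Capan-1 these counts were 4 and 1, beside 26.4% and 27.7%. None of the 10 genes passed a test of the difference between the siRNA effects of the lines in limma, and none had an unadjusted p under 0.05 there. Of all genes, 0.00486% were lower and 0% higher past the threshold in that test, and 5.73% and 7.39% without adjustment.

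A list of 85 further genes of the pathway was read in the same way. After siRNA in MIA PaCa-2, 3 of 78 tested fell and 2 rose, beside the 1.12% and 1.15% of all genes. TLR3, an endosomal receptor for double-stranded RNA, fell by 0.81 on the log2 scale (SE 0.12, limma adjusted p = 0.0386). MAP3K7, the kinase TAK1 that activates the IkB kinase complex, fell by 0.84 (SE 0.12, limma adjusted p = 0.0407). The chemokine gene CXCL3 fell by 0.62 (limma adjusted p = 0.0317). CXCL8, the gene of interleukin-8, rose by 0.77 and LIFR, the receptor of LIF, also by 0.77 (limma adjusted p = 0.0367 and 0.0314). All 5 have adjusted p close to the threshold, and none of the list's genes passed when the first MIA PaCa-2 siRNA array, the first MIA PaCa-2 parental array or any of the Capan-1 arrays was left out, while 1 passed without the second MIA PaCa-2 parental array. In Capan-1, 0 of 83 passed in limma, and without adjustment 4 had a p under 0.05 on the lower side and 11 on the higher, beside 7.96% and 6.49% of all genes. In MIA PaCa-2 these unadjusted counts were 9 and 9 of 78, beside 11.3% and 11.9%. In Capan-1, LIFR had a log2 fold change of 0.42 ± 0.10 and its receptor partner IL6ST (gp130) one of 0.46 ± 0.12. Their limma adjusted p in that line were 0.262 and 0.293. None of 85 passed for the difference between the lines, where an unadjusted p under 0.05 was reached by 6 on the lower side and 6 on the higher, beside 5.73% and 7.39% of all genes.

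The wide differences were between the lines. By their brightest probes, all 10 genes were lower in parental MIA PaCa-2 than in parental Capan-1. The arrays of the lines did not overlap for any of them by these probes. Of all 20121 genes tested, 31.7% were lower and 40.1% higher, while 39.2% had MIA PaCa-2 arrays wholly below and 47.2% wholly above. The median over the 10 genes was -1.36 on the log2 scale, and over all genes tested 0.10. This comparison shares its parental arrays with the siRNA comparisons.

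**Figure D2:**
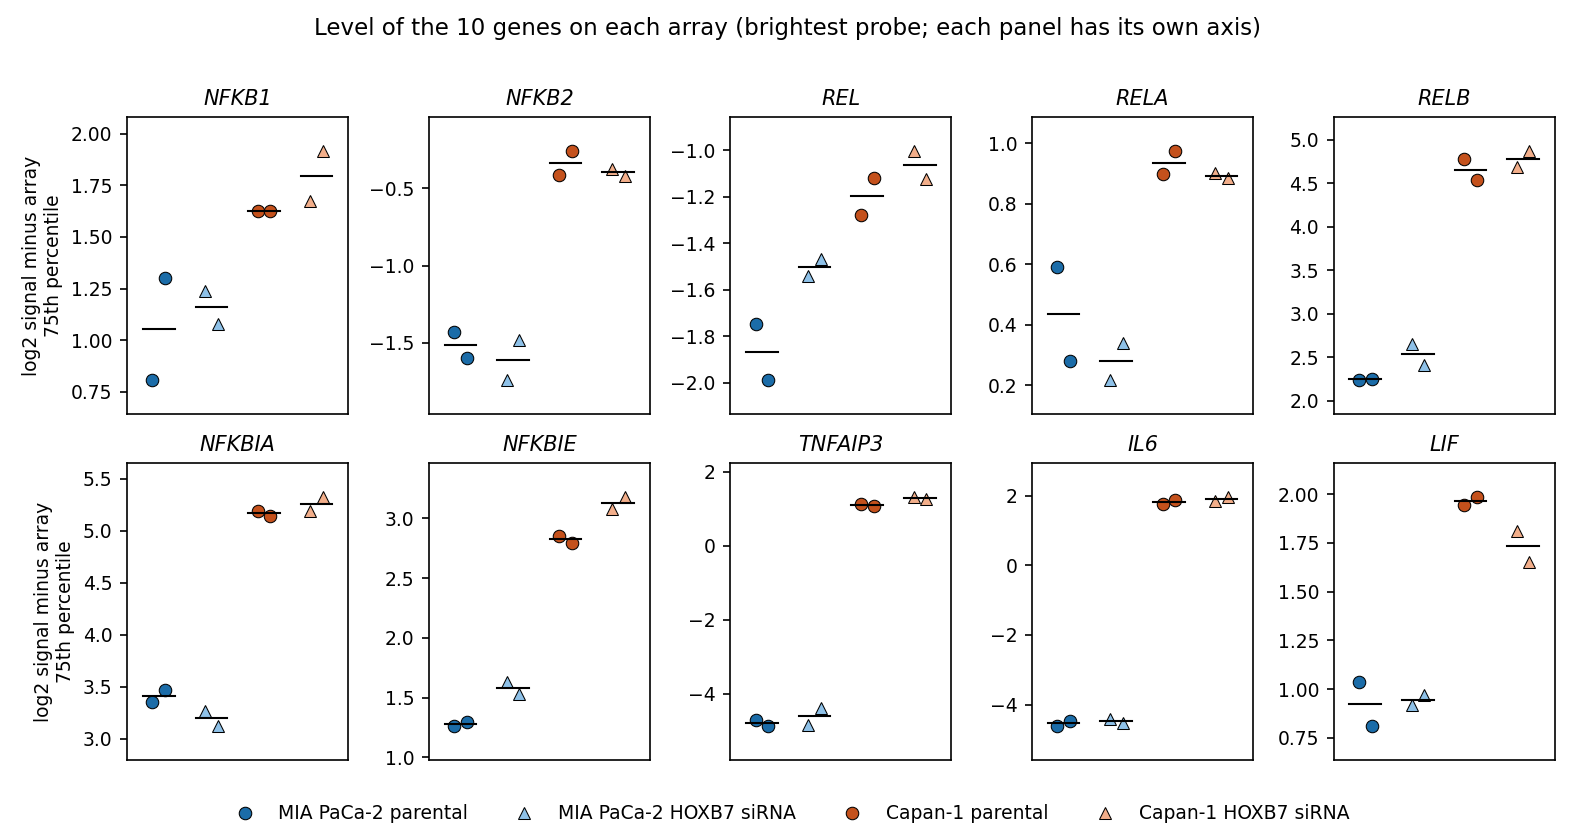
Level of the 10 genes on each of the 8 arrays, as log2 signal minus the 75th percentile of the array (y axis, its own range in each panel), by the brightest probe. Points are arrays, 2 per group, and bars are group means. In every panel the 4 MIA PaCa-2 arrays (blue) lie below the 4 Capan-1 arrays (orange). By group mean, circles (parental) and triangles (siRNA) of a line lie closer to each other than to the other line, except for REL in MIA PaCa-2. There siRNA minus parental is 0.36, and siRNA-treated MIA PaCa-2 minus parental Capan-1 is -0.30.

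IL6 and TNFAIP3 differed most. IL6 stood at -4.60 and -4.46 in parental MIA PaCa-2 and at 1.74 and 1.88 in parental Capan-1. It was 81.4-fold lower in MIA PaCa-2, with a 95% interval of 68.3 to 96.9 (log2 fold change -6.35 ± 0.10, limma adjusted p = 3.45e-07). TNFAIP3 stood at -4.71 and -4.85 against 1.12 and 1.07. It was 58.7-fold lower, with an interval of 44.8 to 76.8 (-5.87 ± 0.16, limma adjusted p = 1.23e-06). Both genes were near the dim end of the range in MIA PaCa-2, and the size of their difference depends on the background correction: with normexp the log2 fold changes were -4.01 and -3.14.

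The other inhibitors, NFKBIA and NFKBIE, were also lower in MIA PaCa-2. NFKBIA stood at 3.35 and 3.47 in parental MIA PaCa-2 and at 5.19 and 5.14 in parental Capan-1, and was 3.38-fold lower (-1.76 ± 0.10, limma adjusted p = 1.85e-05). NFKBIE was 2.92-fold lower (-1.55 ± 0.08, limma adjusted p = 1.77e-05), from 1.26 and 1.29 in MIA PaCa-2 to 2.85 and 2.79 in Capan-1. All 3 inhibitors were lower in the same line.

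Of the subunits, RELB differed most, and more than NFKBIA and NFKBIE. RELB stood at 2.24 and 2.25 in parental MIA PaCa-2 and at 4.78 and 4.53 in parental Capan-1, 5.31-fold lower (-2.41 ± 0.13, limma adjusted p = 1.92e-05). NFKB2 stood at -1.43 and -1.60 against -0.42 and -0.26, 2.26-fold lower (-1.18 ± 0.12, limma adjusted p = 0.000294). These are the subunits of the non-canonical branch. REL was 1.59-fold lower (-0.67 ± 0.12, limma adjusted p = 0.00282). NFKB1 stood at 0.81 and 1.30 against 1.63 and 1.63, 1.49-fold lower (-0.57 ± 0.18, limma adjusted p = 0.0295). Its MIA PaCa-2 arrays lie far apart, and it missed the threshold without the first of them (-0.33, adjusted p = 0.0997) and without either parental Capan-1 array (adjusted p = 0.101 and 0.0967, both at -0.57). RELA stood by its brightest probe at 0.59 and 0.28 against 0.90 and 0.97, 1.41-fold lower (-0.50 ± 0.12, limma adjusted p = 0.0115). This probe missed the threshold without the second parental Capan-1 array (-0.46). The second RELA probe, 335 bases away in the array's genome build (hg18), gave -0.63 ± 0.11.

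LIF was lower by one of its probes and not by the other. The brighter stood at 1.04 and 0.81 in parental MIA PaCa-2 and at 1.94 and 1.98 in parental Capan-1, 2.05-fold lower (-1.04 ± 0.11, limma adjusted p = 0.000288). The dimmer, 2948 bases away in hg18, lay between -4.48 and -4.04 on all 8 arrays and gave -0.09 ± 0.19 (limma adjusted p = 0.679, 95% interval -0.55 to 0.37). The probes therefore disagree on this gene.

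The siRNA-treated arrays give the same comparison on the other 4 arrays of the series. All 10 genes were again lower in MIA PaCa-2, where 30.7% of all genes were lower and 41.1% higher. IL6 was at -4.41 and -4.53 against 1.84 and 1.95 in Capan-1, a log2 difference of -6.36. The widest departure from the parental value was NFKBIA, at -2.06 beside -1.76, and the value nearest 0 was REL at -0.44 beside -0.67. Ordered by group mean, every MIA PaCa-2 group lay below every Capan-1 group for all 10 genes. The nearest groups of opposite lines differed past the threshold for 8 of the 10 by their brightest probes. The exceptions were NFKB1 (-0.47, limma adjusted p = 0.0579) and REL (-0.30, limma adjusted p = 0.0579), in both cases siRNA-treated MIA PaCa-2 against parental Capan-1. Neighbouring groups of the same line did not differ past the threshold for any of the 10.

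**Figure D3:**
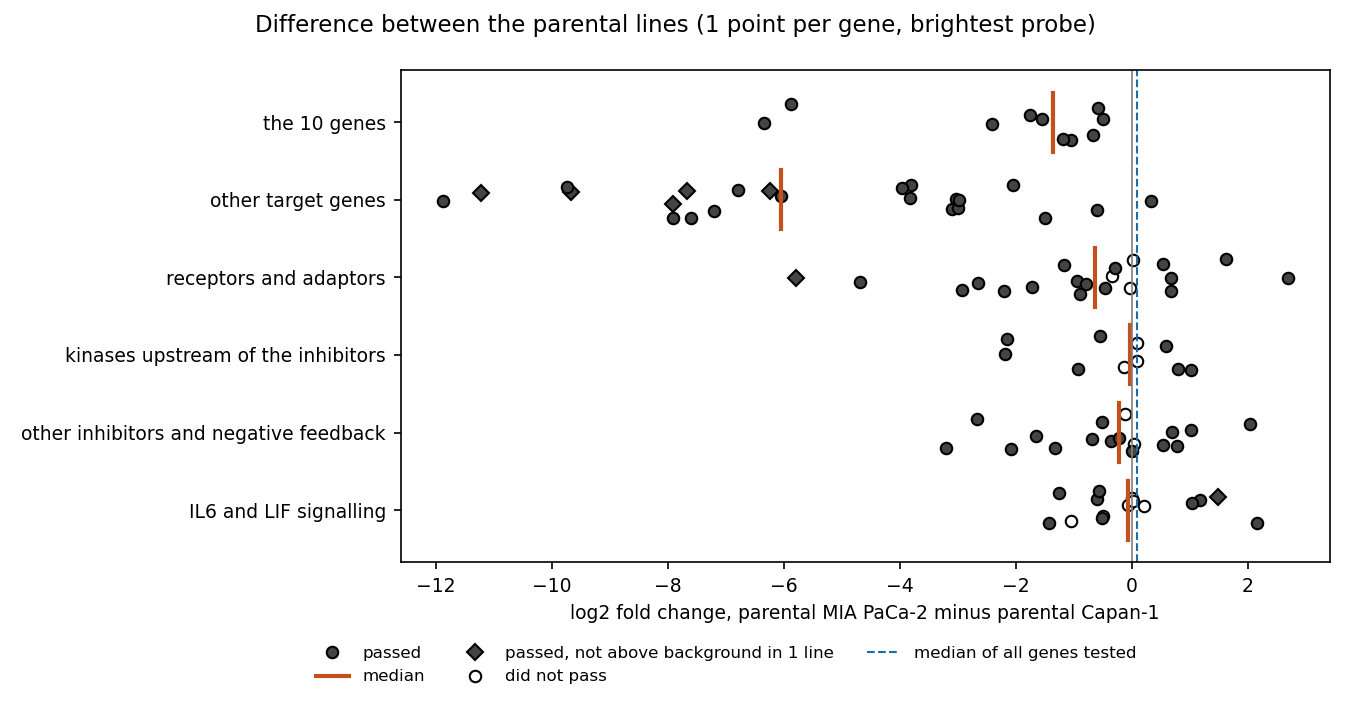
Log2 fold change between the parental lines (x axis, MIA PaCa-2 minus Capan-1), 1 point per gene by its brightest probe, for the 10 genes and the 5 groups of the 85 further genes. Points are filled where any probe of the gene passed the limma threshold, diamonds were not well above background in 1 line, orange bars are medians of fitted values and the dashed line is the median of all genes tested. The 10 genes and the other target genes lie to the left of it, except PLAU, while the remaining groups spread to both sides.

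The other targets of NF-kB were lower in MIA PaCa-2 as well. Of 23 target genes outside the 10, 22 were lower and 1, PLAU (urokinase), was higher by 0.34 ± 0.09 (limma adjusted p = 0.0150). Among all genes tested, 31.7% were lower and 40.1% higher. The median was -6.05, or -4.74 with the 5 genes that were not above background in parental MIA PaCa-2 at their bounds. The chemokine gene CCL20 was at least 630-fold lower, at 3.24 and 3.36 in Capan-1 and not well above background in MIA PaCa-2. CSF2, a myeloid growth factor, was at least 213-fold lower, VCAM1, an adhesion molecule, at least 78.3-fold, PTGS2, the inducible cyclooxygenase, at least 61.0-fold and IL1A at least 26.7-fold. CCL2, a monocyte chemokine, was at 6.23 and 6.28 in Capan-1 and at -5.66 and -5.59 in MIA PaCa-2, where it was above background on 1 array of the parental pair. TNF, an activating ligand of the pathway as well as a target, was at -3.29 to -3.20 against -0.27 on both Capan-1 arrays. Promoter windows of 19 of these 23 genes were held, and 8 of the 19 contained the consensus, beside 13.3% of all genes with a window. Since these genes were listed as targets of NF-kB, that comparison is a description and no test.

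The upstream genes were split. Of 20 receptors and adaptors 12 were lower and 5 higher, with a median of -0.63. BIRC3, the ubiquitin ligase cIAP2 and itself a known target, was 25.8-fold lower, and TLR4, the receptor of lipopolysaccharide, at least 15.2-fold lower. TNFRSF1A, the main receptor of TNF, was 6.45-fold higher in MIA PaCa-2. Of 10 upstream kinases 4 were lower and 3 higher, among them MAP3K8 at -2.19 and MAP3K7 at 1.03 on the log2 scale. Of 17 other inhibitors and feedback genes 9 were lower and 6 higher. ZC3H12A, the RNase regnase-1, was 9.17-fold lower, and CYLD, a deubiquitinase that restrains the pathway, stood at -3.48 and -3.46 against -5.58 and -5.45 in Capan-1, where it was above background on 1 of the 2 parental arrays. Of 15 genes of IL6 and LIF signalling 5 were lower and 4 higher. JAK1 was 2.67-fold lower and LIFR 4.47-fold higher, the latter opposite in direction to its ligand LIF as read by the brighter LIF probe. Together 52 of the 85 genes were lower and 19 higher, beside the 31.7% and 40.1% of all genes.

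Genes with profiles most like 3 of the members were looked up among 20359 probes above background on all 8 arrays. For NFKBIA these were PALLD, SH3YL1 and NSUN2, for IL6 the genes OR7E91P, TMEM51 and LRRC1, and for LIF the genes SSR1, PLXNB1 and FIZ1. The lowest Pearson's r among them over 8 arrays was 0.997, for FIZ1. With 2 lines that differ at most genes, r over these arrays is high for many probes, and it is given as a description.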

How the data were processed

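The 8 RNA samples were labeled with Cy3 and hybridized singly to Agilent 4x44K arrays (Low Input Quick Amp kit). The authors extracted the scans with Feature Extraction 9.5.3 and deposited, per spot, a background-subtracted intensity (processed signal), its flags for outliers and its calls against background. A log2 table of the same intensity, also deposited, was found to equal it unscaled and served as an alternative. With the scaling used here, that alternative could only repeat the main result.

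Here, log2 intensities of unflagged spots were averaged per probe, and the array's 75th percentile over gene probes was subtracted. A probe was above background on an array when more than 50% of its spots were, and was tested when at least 1 of the groups compared had it above background on both arrays. Gene names came from the files, updated through the accession for 24827 probes by a RefSeq table. The 4 group means were fitted with limma 3.58.1 (lmFit, eBayes) in R 4.3.3. A gene counted as lower or higher when a probe passed on that side with no probe passing on the opposite one, and its brightest probe gave its value. Bounds ("at least") set the brighter mean against the lowest level called above background. Tables and figures were made with the R package data.table (1.17.8), Python 3.11.15, numpy 2.4.6, pandas 2.3.3 and matplotlib 3.10.9.

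The members, the list of 85 genes and the marker lists were chosen with earlier results of these data known. Named are the members, HOXB7, list genes past the threshold after siRNA, the 2 largest per group of the list in each comparison, and the 3 closest profiles of NFKBIA, IL6 and LIF. Not all of these are printed. VCAM1, CSF2, PTGS2, IL1A and TNF were named after their values were seen. The steps were tested on simulated data. Alternatives were normexp (offset 50), quantile or no scaling, the percentile over detected probes, outlier spots, the log2 table, the dim-probe filters, only the arrays compared, the replicate block, an intensity trend, each array left out (the array that stays alone takes its spread from the others) and the authors' type of rule, a 99% interval of the parental arrays in windows of 1001 probes. The comparison of siRNA-treated arrays was added after the parental one was seen.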

Additional observations from a re-analysis of the deposited data

Results flagged for a closer look

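The siRNA and parental arrays did not overlap and moved in opposite directions in the lines for 4 of the 95 genes (the members and the pathway list), or 4.21%, beside 7.75% of all 20574 genes tested. The difference between the siRNA effects (MIA PaCa-2 minus Capan-1, log2) was -0.31 for NFKBIA (limma adjusted p = 0.485), -0.21 for COMMD1, an inhibitor that limits NF-kB on chromatin (adjusted p = 0.584), 0.30 for JAK1 (adjusted p = 0.567) and 0.39 for PIM1, a kinase induced by STAT3 (adjusted p = 0.525). In Capan-1 alone the siRNA changes were 0.09 for NFKBIA, 0.14 for COMMD1, -0.059 for JAK1 and -0.019 for PIM1. In MIA PaCa-2 they were -0.22, -0.076, 0.24 and 0.37 in the same order. The nearest NFKBIA arrays of Capan-1 stood at 5.190 (parental) and 5.192 (siRNA). None of the 4 differences between the siRNA effects passed the threshold in limma.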

How the results depend on the processing

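The call that none of the 10 genes passed after siRNA, in either line or for the difference between the lines, held under every alternative run, and so did a count of 10 lower genes between the parental lines, except for 9 where NFKB1 or RELA was lost. NFKB1 was also lost when only the arrays compared were fitted (adjusted p = 0.0554), and RELA without scaling between arrays (adjusted p = 0.121). Leaving out 1 array at a time gave 9 to 10 genes there. The count of 5 genes of the pathway list past the threshold after siRNA in MIA PaCa-2 was 0 without scaling, 0 with no filter on dim probes, 0 with only the arrays compared, 0 by the 99% interval, 9 among probes above background on all 8 arrays, 11 with an intensity trend in the spread, and 0 to 5 with 1 array left out. In Capan-1 the count of 0 became 2 with normexp and 6 by the 99% interval, by which 0.927% of all genes were lower and 1.22% higher, and for the difference between the lines it was 0 to 1 with 1 array left out. By the 99% interval in MIA PaCa-2, 0.261% of all genes were lower and 0.303% higher. The shares of all genes passing under the other alternatives are not given here. The list's counts under those alternatives therefore cannot be set against them. The replicate numbers did not pair the samples (correlation of deviations 0.020 for MIA PaCa-2 and 0.038 for Capan-1). With the replicate number as a block, the list's count in MIA PaCa-2 was 0 in place of 5, the count between the parental lines was 72 in place of 71, and all 10 members still passed there. The cause of these changes was not tested.

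Small changes turned in sign. Without scaling, which moves the 75th percentile by -0.21 (MIA PaCa-2) and -0.15 (Capan-1), the siRNA change in MIA PaCa-2 was -0.11 for NFKB1, -0.15 for IL6, -0.19 for LIF and -0.036 for TNFAIP3, and in Capan-1 -0.062 for NFKBIA, -0.031 for RELB, -0.018 for REL and -0.075 for IL6. With quantile normalization IL6 was -0.059 in MIA PaCa-2, NFKBIA -0.0083 in Capan-1, and the difference between the lines for NFKBIE 0.022. With normexp LIF was -0.028 in MIA PaCa-2, and the difference was 0.027 for NFKB2, 0.12 for IL6 and 0.037 for TNFAIP3. With outlier spots kept the difference was 0.00063 for NFKBIE and 0.090 for IL6, and with the percentile taken over probes above background on all arrays it was 0.011 for NFKBIE. With 1 array left out, the change in MIA PaCa-2 ranged from -0.23 to 0.034 for NFKB2, -0.14 to 0.35 for NFKB1, -0.0044 to 0.13 for IL6, -0.094 to 0.13 for LIF and -0.053 to 0.41 for TNFAIP3. In Capan-1 it ranged from -0.14 to 0.018 for NFKB2 and -0.0036 to 0.25 for RELB. The difference ranged from -0.27 to 0.041 for RELA, -0.17 to 0.093 for NFKB2, -0.31 to 0.18 for NFKB1, -0.052 to 0.052 for NFKBIE, -0.084 to 0.057 for IL6 and -0.25 to 0.21 for TNFAIP3. None of these passed the threshold. Each group had only 2 arrays. IL6 and TNFAIP3 were dim in MIA PaCa-2, and the size of their difference between the lines moved with the background correction.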
